A study of Mus musculus with 6 samples.

Results

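Cholesterol synthesis, its regulation, and cholesterol efflux and storage were followed through 28 genes in mouse epididymal fat on a normal diet (ND) and a high-fat diet (HFD). The members were chosen by name, with earlier results of these data known. Their symbols were matched to the identifiers of the count table through the GENCODE M21 annotation of GRCm38. All 28 members were found among 54532 genes. Of these, 18 encode enzymes of the synthesis pathway, 4 encode proteins that regulate it, and 6 encode proteins of efflux, esterification, oxidation, transport or secretion of sterols (called efflux and storage here). Epididymal fat is the visceral depot beside the epididymis of male animals. The mice were untreated male C57BL/6J, fed from 4 weeks of age for 16 weeks with either ND (4.5% fat) or HFD (60% fat) and sampled at 20 weeks. RNA of the whole tissue was sequenced in 3 libraries per diet, named ND1 to ND3 and HFD1 to HFD3. The labels do not say that each library came from a separate mouse, so p-values here measure the spread between these libraries. In bulk tissue, fewer cells of a type and less RNA per cell cannot be told apart.

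Cells make cholesterol from acetyl-CoA through mevalonate, isoprenoid diphosphates, squalene and lanosterol. The sterol sensor Scap carries the transcription factor SREBP-2 (encoded by Srebf2) from the endoplasmic reticulum to the Golgi when membrane cholesterol is low, and the Insig proteins hold it back when sterol is abundant. Surplus cholesterol is exported by the transporters Abca1 and Abcg1, esterified by Soat1 for storage in lipid droplets, or converted to oxysterols, which activate the liver X receptors. Adipose tissue holds a large pool of unesterified cholesterol, mostly taken up from lipoproteins, and its macrophages can become loaded with lipid.

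Each library held 16996896 to 18859320 counts assigned to genes. Levels are given as CPM (counts scaled to a common library size with TMM factors), with the SD over the 3 libraries of a diet. A floor of 3 counts corresponds to 0.150 to 0.181 CPM, and such floors and the counting error behind them leave out the spread between libraries. All 28 members were among the 15751 genes that passed the filter on low counts. Differences were tested with edgeR, and a gene was called when its Benjamini-Hochberg adjusted p-value was under 0.05. Over all tested genes 15.9% were called, 9.85% as higher and 6.04% as lower on HFD. The CPM of the 2 diets did not overlap in 40.9% of them, with every HFD library above in 21.7% and below in 19.1%.

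The tissue label was set against marker genes, and no marker was at 0 in all libraries. Summed CPM of 15 adipocyte markers was 63123 to 80414 on ND and 24874 to 56282 on HFD, and 3 of the 15 were called lower. This sum is weighted towards abundant genes, among them Cfd (mean 13634 CPM on ND, 1275 on HFD) and Car3 (17177 and 7053). Plin4, Cidec and Acsl1 were at 1.02, 0.945 and 1.10 times their ND means. Of the 15 log2 fold changes 13 were negative, with a median of -0.63. Summed CPM of 15 macrophage markers was 2078 to 2193 on ND and 4473 to 9891 on HFD, and 11 of the 15 were called higher. Summed CPM of 8 epithelial markers was 22.3 to 32.1 in 5 libraries and 285 in ND3. Their part in the results that follow was not tested.

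Of the 28 members, 5 were called between the diets, where 15.9% of all tested genes were. Abcg1 and Soat1 rose on HFD by 8.28-fold and 9.64-fold, whereas Abca1, the other main cholesterol exporter, was at 1.05 times its ND mean with overlapping libraries. Acat2, Pmvk and Fdft1, which encode 3 enzymes of the synthesis pathway, fell to 37.1%, 46.2% and 57.5% of their ND means. The other 15 synthesis genes and the 4 regulation genes were not called. DESeq2 called 2 members higher and 4 lower, and over all the genes it tested 10.7% were higher and 8.42% lower.

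**Figure D1:**
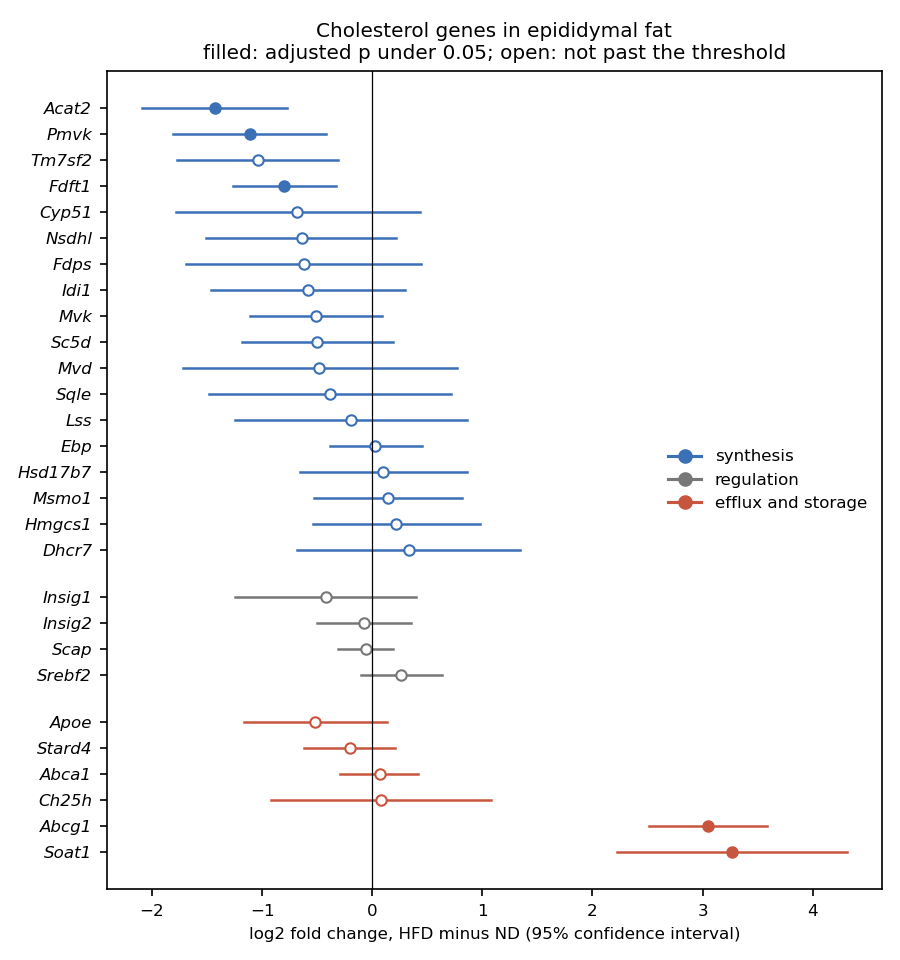
Log2 fold change of HFD against ND for the 28 members, by role, with 95% intervals (lines) and called genes as filled points. Abcg1 (3.05) and Soat1 (3.27) lie far to the right of all others, and Acat2 (-1.43) lies furthest to the left.

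Abcg1 encodes a transporter that moves cholesterol out of the cell towards high-density lipoprotein. The gene (ENSMUSG00000024030) lies on the plus strand of chromosome 17, from 31057675 to 31117988 in GRCm38. In the ND libraries it was measured at 14.7, 14.9 and 16.2 CPM, and in HFD1, HFD2 and HFD3 at 118, 93.2 and 169 CPM. The ND libraries were nearly equal and the HFD libraries were all far above them. The means were 15.3 ± 0.826 and 127 ± 38.7 CPM (SD, n = 3 each), which gave a log2 fold change of 3.05 (SE 0.23, 95% interval 2.51 to 3.59, edgeR adjusted p = 0.00271).

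Soat1 encodes sterol O-acyltransferase, the enzyme of the endoplasmic reticulum that joins a fatty acid to cholesterol. The gene (ENSMUSG00000026600) lies on the minus strand of chromosome 1, from 156424525 to 156474331. Soat1 was at 13.6, 12.6 and 19.1 CPM on ND, against 129, 71.3 and 237 CPM in HFD1, HFD2 and HFD3. No HFD library came near the ND range, and within HFD the values spread more than 3-fold. The log2 fold change was 3.27 (SE 0.44, 95% interval 2.22 to 4.31, edgeR adjusted p = 0.00823), from 15.1 ± 3.54 to 146 ± 84.0 CPM.

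Within HFD, both genes were highest in HFD3, then HFD1, then HFD2. The summed macrophage markers followed this order, with 9891 CPM in HFD3, 5823 in HFD1 and 4473 in HFD2, and the summed adipocyte markers the opposite one, with 24874, 37951 and 56282 CPM. The part of cell content in the rise of Abcg1 and Soat1 was not tested. Both calls were made in each of the 6 runs that left out 1 library, with log2 fold changes of 2.77 to 3.23 for Abcg1 and 2.71 to 3.60 for Soat1, the smallest in each case without HFD3.

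**Figure D2:**
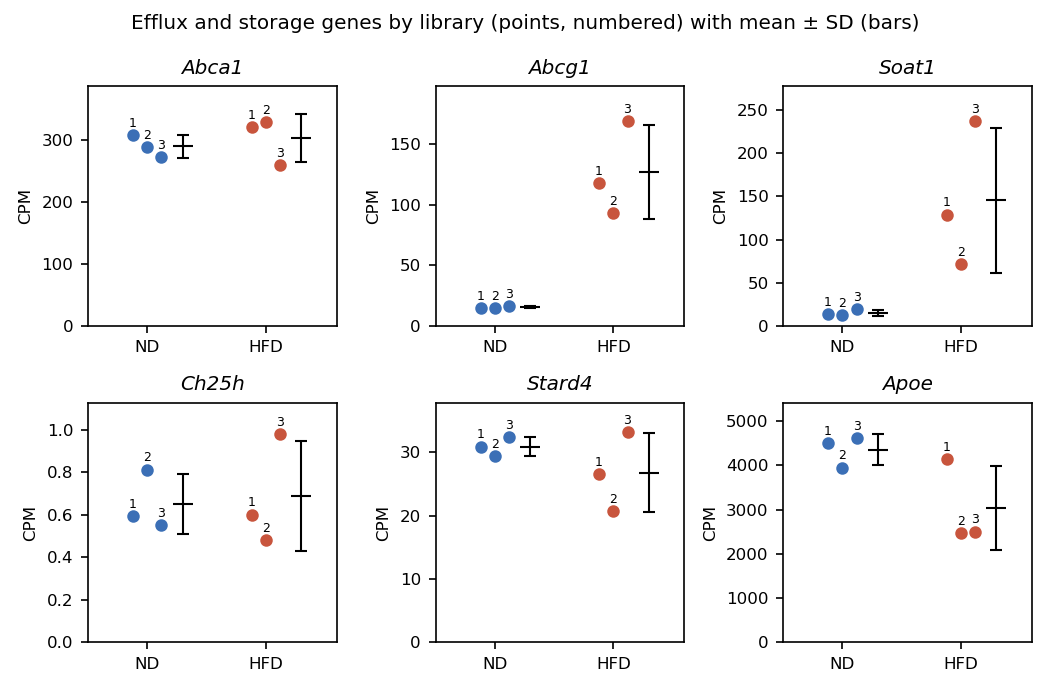
CPM of the 6 efflux and storage genes in each library (points, numbered by replicate, linear axes from 0), with the mean and SD of each diet as bars. Abcg1 and Soat1 separate the diets, while the points of Abca1, Stard4, Ch25h and Apoe overlap.

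Abca1 encodes the transporter that hands cholesterol and phospholipid to lipid-poor apolipoprotein A-I. It was measured at 308, 288 and 272 CPM on ND, against 321, 329 and 259 CPM on HFD. HFD3, the library with the highest Abcg1 and Soat1, had the lowest Abca1 of all. The log2 fold change was 0.07 (95% interval -0.29 to 0.42, edgeR adjusted p = 0.796), an interval that lies wholly below that of Abcg1.

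Apoe encodes apolipoprotein E, a secreted carrier of lipid that adipocytes and macrophages both make. Its CPM was 4491, 3949 and 4614 on ND and 4141, 2472 and 2499.8 on HFD. HFD1 lay within the ND range and the other HFD libraries below it. The difference, 4352 ± 354 against 3038 ± 956 CPM, was not called (log2 fold change -0.52, 95% interval -1.16 to 0.13, edgeR adjusted p = 0.229).

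Stard4 encodes a small soluble protein that shuttles cholesterol between membranes. Its level was 30.9, 29.4 and 32.4 CPM on ND, against 26.6, 20.7 and 33.2 CPM on HFD. The ranges overlapped, with an edgeR adjusted p of 0.454. Ch25h, which encodes cholesterol 25-hydroxylase, was close to the floor, with 11, 14 and 11 counts on ND, against 11, 8 and 17 on HFD. Its log2 fold change of 0.08 had a 95% interval of -0.92 to 1.08, so a difference of up to about that size was not detectable at this depth. Its exons share bases with the antisense gene Gm26902.

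In the synthesis pathway 13 of 18 log2 fold changes were negative and 5 positive, with a median of -0.51 and a range of -1.43 to 0.33. Over all tested genes the median was 0.01 and 49.5% were negative. The called genes stand at separate points of the pathway. Acat2 acts at the entry, Pmvk in the conversion of mevalonate, and Fdft1 at the step that commits isoprenoid to sterol.

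Acat2 encodes the cytosolic acetyl-CoA acetyltransferase, which joins acetyl-CoA units into acetoacetyl-CoA. The gene (ENSMUSG00000023832) lies on the minus strand of chromosome 17, from 12942890 to 12960747. It was at 86.5, 161 and 78.5 CPM on ND, against 35.7, 44.6 and 40.6 CPM on HFD. All HFD libraries lay below all ND libraries, and the HFD values were close together. Acat2 fell from 109 ± 45.3 to 40.3 ± 4.48 CPM, a log2 fold change of -1.43 (SE 0.28, edgeR adjusted p = 0.0191).

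Pmvk encodes phosphomevalonate kinase, which adds the second phosphate to mevalonate. The gene (ENSMUSG00000027952) lies on the plus strand of chromosome 3, from 89454541 to 89469013. Its CPM was 72.4, 138 and 61.3 on ND and 41.0, 43.1 and 41.5 on HFD. The HFD libraries were almost equal, and ND2 stood far above ND1 and ND3. Pmvk fell from 90.7 ± 41.6 to 41.9 ± 1.07 CPM, a log2 fold change of -1.11 (SE 0.29, edgeR adjusted p = 0.0443).

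Fdft1 encodes squalene synthase. The gene (ENSMUSG00000021273) lies on the minus strand of chromosome 14, from 63145150 to 63179578. It was measured at 79.0, 86.3 and 60.9 CPM on ND, against 43.8, 52.3 and 34.0 CPM on HFD. The diets did not overlap, and the gap between ND3 and HFD2 was small. Fdft1 fell from 75.4 ± 13.1 to 43.4 ± 9.16 CPM, a log2 fold change of -0.80 (SE 0.20, edgeR adjusted p = 0.0368). Exons of Fdft1 overlap those of Ctsb on the opposite strand, and reads from the shared bases cannot be assigned where counting does not use strand.

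These 3 calls depended on single libraries, while the direction of all 3 genes held in every run that left out 1 library. The log2 fold change lay between -1.65 and -1.03 in Acat2, -1.36 and -0.67 in Pmvk, and -0.96 and -0.67 in Fdft1. No synthesis gene was called without ND1 or without HFD1, runs in which the calls over all genes fell from 2504 to 492 and 474. By contrast 1 was called without HFD3, 2 without ND2 or without HFD2, and 3 without ND3. Acat2 lost its call without ND1 (edgeR adjusted p = 0.0520) and without HFD1 (0.0840). Pmvk lost it without ND1 (0.0817), HFD1 (0.135), HFD2 (0.0582) or HFD3 (0.109). It kept its call without ND2, the run with its smallest log2 fold change. Fdft1 lost it without ND1 (0.118), ND2 (0.114), HFD1 (0.120) or HFD3 (0.0509).

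**Figure D3:**
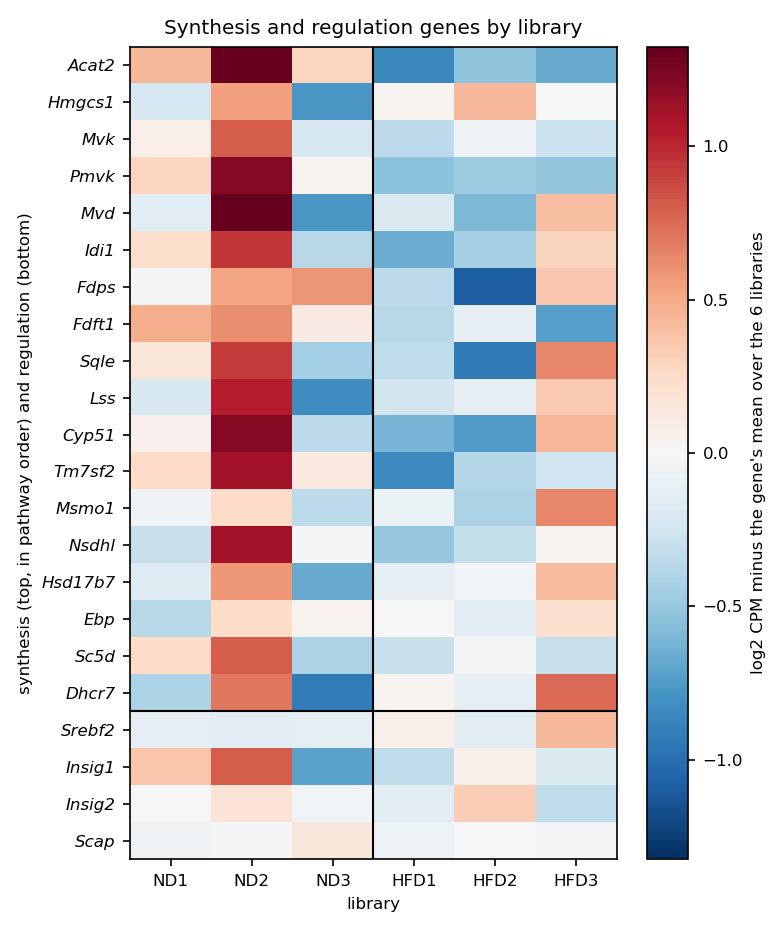
Log2 CPM of the 18 synthesis genes in pathway order and of the 4 regulation genes below them, by library, as the difference from the mean of that gene over the 6 libraries (colour). The column of ND2 is the highest in 15 of the 18 synthesis genes.

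Every HFD library lay below every ND library in 4 of the 18 synthesis genes, against 19.1% of all tested genes. Tm7sf2, which encodes a reductase of the sterol ring, was the remaining gene of these. It was at 11.7, 21.2 and 10.7 CPM on ND, against 5.46, 7.53 and 8.18 CPM on HFD. Its HFD mean was 48.6% of the ND mean, but the edgeR adjusted p was 0.0610 and the gene was not called. DESeq2 called it (adjusted p = 0.0159), as did edgeR with library size as the only scaling (0.0433). Exons of Tm7sf2 overlap those of Vps51 on the same strand.

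Of the uncalled synthesis genes the next in size were Cyp51, Nsdhl, Fdps and Idi1. Cyp51, the demethylase that acts on lanosterol, was at 59.9, 134 and 45.2 CPM on ND, against 37.5, 34.1 and 77.9 CPM on HFD. Nsdhl, a dehydrogenase that helps to remove methyl groups from the sterol ring, was at 31.1, 83.4 and 38.0 CPM on ND, against 27.2, 31.0 and 39.3 CPM on HFD. In both genes ND2 was the highest library and HFD3 the highest on HFD, and the ranges overlapped.

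Idi1 encodes the isomerase of isopentenyl diphosphate. Its level was 20.6, 33.9 and 13.6 CPM on ND, against 11.1, 12.9 and 21.5 CPM on HFD, again with overlapping ranges. Fdps, which encodes farnesyl diphosphate synthase, had the lowest counted level per length of the synthesis genes. It had 14, 19 and 23 counts on ND, against 11, 6 and 17 on HFD. Its exons share bases with Gm43738 on the same strand, and reads of those bases cannot be told apart. Whether these counts hold all reads of Fdps was not tested. The edgeR adjusted p-values of these 4 genes lay between 0.261 and 0.373.

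The remaining 10 synthesis genes (Hmgcs1, Mvk, Mvd, Sqle, Lss, Msmo1, Hsd17b7, Ebp, Sc5d and Dhcr7) all overlapped between the diets, with log2 fold changes of -0.51 in Mvk to 0.33 in Dhcr7. Hmgcs1, which encodes the synthase that makes HMG-CoA, had overlapping ranges at 196, 332 and 134 CPM on ND, against 234, 307 and 228 CPM on HFD. Ebp, a sterol isomerase, had the narrowest interval of the 18, with a log2 fold change of 0.03 and a 95% interval of -0.38 to 0.45. Dhcr7, a reductase of the last step to cholesterol, was at 21.3 ± 12.8 CPM on ND, against 26.7 ± 9.15 CPM on HFD. Its interval of -0.68 to 1.34 leaves room for a change of either sign. Exons of Hmgcs1, Idi1, Lss, Cyp51 and Scap also overlap a gene on the opposite strand (Gm48342, Gm48574, 4930483K19Rik, Akap9 and 5830462I19Rik).

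The synthesis genes varied together among the ND libraries. ND2 was the highest ND library in 17 of the 18 genes, with Fdps as the exception, against 36.4% of all tested genes. The ratio of ND2 to the mean of ND1 and ND3 had a median of 1.97 over the 18 genes, against 0.991 over all tested genes. It ranged from 1.16 in Fdps to 3.35 in Mvd and was 2.89 in Lss, 2.55 in Cyp51 and 2.41 in Nsdhl. The CV between the ND libraries had a median of 44.7% in the synthesis genes and 12.8% over all tested genes.

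Leaving ND2 out moved the median log2 fold change of the synthesis genes from -0.51 to -0.08. Without that library the value of Mvd turned from -0.48 to 0.36 and that of Lss from -0.19 to 0.51. ND2 had the highest adipocyte marker sum of the 6 libraries, at 80414 CPM against 72844 in ND1 and 63123 in ND3. Its mesothelial marker sum was the lowest on ND, at 207 CPM against 267 and 280, and its macrophage sum of 2105 CPM lay between those of ND1 and ND3. The part of these markers in the high synthesis genes of ND2 was not tested.

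On HFD, HFD3 was the highest library in 12 of the 18 genes (44.1% over all tested genes). The CV between the HFD libraries had a median of 21.1% in the synthesis genes, close to the 18.1% over all tested genes. The ratio of HFD3 to the mean of HFD1 and HFD2 ranged from 0.707 in Fdft1 to 2.39 in Sqle. The next highest were Cyp51 (2.17), Fdps (2.03, from 11, 6 and 17 counts), Msmo1 (1.85) and Idi1 (1.79), and Acat2 (1.01) and Pmvk (0.986) were near 1.

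**Figure D4:**
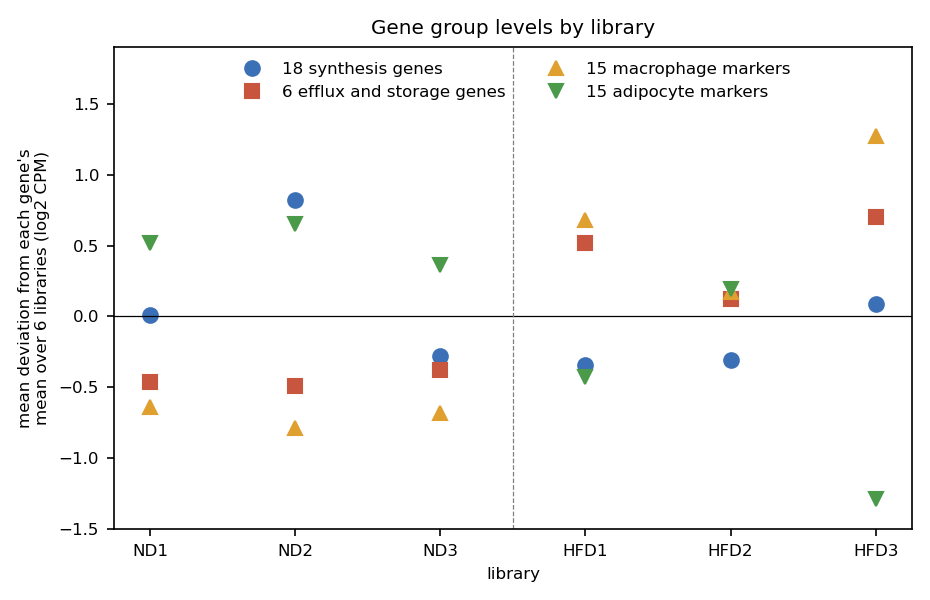
Mean log2 CPM of the synthesis genes, the efflux and storage genes and the macrophage and adipocyte markers in each library, as the difference from the mean of each gene over the 6 libraries. Synthesis genes overlap between the diets with ND2 on top, while by this mean efflux and storage genes and macrophage markers are higher in every HFD library.

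The synthesis and efflux genes were set side by side by their mean log2 level relative to the mean of each gene over the 6 libraries. The synthesis genes were at 0.01, 0.82 and -0.28 on ND and at -0.34, -0.31 and 0.09 on HFD, so the diets overlapped. The efflux and storage genes were at -0.46, -0.49 and -0.38 on ND and at 0.52, 0.12 and 0.70 on HFD, without overlap. Without Abcg1 and Soat1, a division made after their values were seen, the remaining 4 genes were at 0.11, 0.08 and 0.07 on ND and at 0.04, -0.27 and -0.03 on HFD. The median log2 fold change of the 6 genes was 0.07, so the separation of the diets on this scale lay in Abcg1 and Soat1. Summed CPM of the 6 genes, which is weighted towards Apoe, did not separate the diets. It was 4859, 4295 and 4955 on ND, against 4735, 2987 and 3199 on HFD.

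None of the 4 regulation genes was called by edgeR or DESeq2 (0 at an unadjusted p under 0.05), and in all of them the diets overlapped. Srebf2 encodes SREBP-2, the transcription factor of the pathway. It was at 88.0, 86.6 and 87.9 CPM on ND, against 100.4, 86.7 and 128 CPM on HFD, a log2 fold change of 0.26 (95% interval -0.10 to 0.63, edgeR adjusted p = 0.277). The ND libraries were within 2 CPM of each other, and ND2 did not stand out here.

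Insig1, a retention protein whose gene is itself a target of the SREBPs, was at 332, 446 and 157 CPM on ND, against 204, 269 and 224 CPM on HFD. ND2 was again the highest, at 1.82 times the mean of ND1 and ND3, and the adjusted p was 0.434. Insig2, the related retention protein, was at 70.5, 80.4 and 69.3 CPM on ND, against 64.5, 88.8 and 56.3 CPM on HFD. Scap was at 45.5, 46.3 and 52.1 CPM on ND, against 44.3, 46.9 and 46.4 CPM on HFD, with a log2 fold change of -0.06 and the narrowest interval of all members (-0.31 to 0.19). The mRNA level of these genes does not measure the cleavage of SREBP-2.

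Levels between genes were compared per length, on the deposited FPKM scale. Apoe was the most abundant member on this scale, at 2064 ± 156 FPKM on ND and 1427 ± 449.9 FPKM on HFD. Insig1 followed on ND at 102 ± 48.4 FPKM, then Pmvk at 53.8 ± 25.0 FPKM, whose spread overlapped with that of several next members. On ND, Abca1 at 28.3 ± 1.96 FPKM was far above Abcg1 at 3.81 ± 0.172 FPKM. On HFD, Abca1 at 29.3 ± 3.73 FPKM and Abcg1 at 31.3 ± 9.48 FPKM overlapped between libraries. Soat1 went from 1.56 ± 0.351 to 14.9 ± 8.58 FPKM, and Ch25h at 0.490 FPKM and Fdps at 0.241 FPKM were the lowest on ND.

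The promoters are shown because the synthesis genes moved together among the ND libraries and Abca1 and Soat1 did not move alike. RefSeq promoter windows of 300 bases around annotated starts (GRCm38.p6) were held for 23 of the 28 members, 31 windows in all, and the table held 27025 genes. Abcg1, Fdft1, Fdps, Sqle and Stard4 had no entry. Both strands were searched for the CCAAT box (CCAAT), the E-box (CACGTG) and the sterol regulatory element core (TCACNCCAC, where SREBPs bind). The DR4 element of the liver X receptors was searched as RGKTYA, NNNN and RGKTYA in a row. Here N is any base, R is A or G, K is G or T, and Y is C or T. No matches overlapped. Each sequence runs 5′ to 3′ along the strand of the gene, and capitals mark the matches, with ATTGG being CCAAT on the other strand. The first pair are synthesis genes with many CCAAT boxes that were not called, the next pair were called lower, and the last pair are the storage enzyme that rose and the exporter that was not called.
Hmgcs1, chr13:119690101-119690400, plus strand: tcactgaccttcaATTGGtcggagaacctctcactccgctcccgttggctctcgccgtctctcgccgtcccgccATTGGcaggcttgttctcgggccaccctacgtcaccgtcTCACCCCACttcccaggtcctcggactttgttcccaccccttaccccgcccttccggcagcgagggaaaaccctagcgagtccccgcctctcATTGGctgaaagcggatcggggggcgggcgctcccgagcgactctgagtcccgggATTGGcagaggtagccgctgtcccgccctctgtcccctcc
Mvk, chr5:114444019-114444318, plus strand: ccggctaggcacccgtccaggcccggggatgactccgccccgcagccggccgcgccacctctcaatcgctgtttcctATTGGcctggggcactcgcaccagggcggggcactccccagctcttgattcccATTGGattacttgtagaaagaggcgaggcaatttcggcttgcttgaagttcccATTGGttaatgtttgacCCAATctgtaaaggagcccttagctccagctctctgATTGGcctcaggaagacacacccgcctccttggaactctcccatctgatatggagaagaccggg
Acat2, chr17:12960676-12960975, minus strand: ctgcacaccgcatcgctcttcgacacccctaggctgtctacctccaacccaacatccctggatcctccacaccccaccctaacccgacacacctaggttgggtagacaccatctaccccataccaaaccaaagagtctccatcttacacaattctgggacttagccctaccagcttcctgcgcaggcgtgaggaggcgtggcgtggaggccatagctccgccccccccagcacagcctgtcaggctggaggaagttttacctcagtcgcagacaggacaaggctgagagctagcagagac
Pmvk, chr3:89454291-89454590, plus strand: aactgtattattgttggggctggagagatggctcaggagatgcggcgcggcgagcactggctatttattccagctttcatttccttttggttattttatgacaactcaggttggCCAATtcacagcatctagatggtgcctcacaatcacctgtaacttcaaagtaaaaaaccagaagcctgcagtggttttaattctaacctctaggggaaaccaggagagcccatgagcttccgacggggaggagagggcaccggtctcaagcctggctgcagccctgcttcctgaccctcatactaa
Soat1, chr1:156474279-156474578, minus strand: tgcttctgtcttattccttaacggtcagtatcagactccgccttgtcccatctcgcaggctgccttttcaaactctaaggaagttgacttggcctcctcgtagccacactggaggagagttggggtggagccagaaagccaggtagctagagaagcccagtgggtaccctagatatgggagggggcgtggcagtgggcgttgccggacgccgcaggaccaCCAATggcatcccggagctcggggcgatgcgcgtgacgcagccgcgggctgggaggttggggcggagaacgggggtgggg
Abca1, chr4:53159846-53160145, minus strand: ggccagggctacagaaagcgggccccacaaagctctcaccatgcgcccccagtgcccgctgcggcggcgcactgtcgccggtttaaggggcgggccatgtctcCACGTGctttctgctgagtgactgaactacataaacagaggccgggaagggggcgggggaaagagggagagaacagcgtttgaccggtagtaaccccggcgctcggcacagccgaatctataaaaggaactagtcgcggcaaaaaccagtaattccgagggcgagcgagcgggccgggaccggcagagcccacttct

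Counting a gene when any of its windows held a match, a CCAAT box was found in 14 of 15 synthesis genes with a window. It was found in 3 of 4 regulation genes and in 1 of 4 efflux and storage genes, against 41.1% of all genes in the table. By window, the shares of these groups were 77.8%, 42.9% and 16.7%, against 37.4% of all windows. The Pmvk window that is not printed held no CCAAT box. Acat2 was the synthesis gene without one, and Mvk held 5. The sterol regulatory element core was found in Hmgcs1, starting at base 114 of its window, and in no other of the 23 members with a window, against 1.44% of all genes. The E-box was found in 3 of 15 synthesis, 2 of 4 regulation and 1 of 4 efflux and storage genes, against 8.09% of all genes. None of these 23 members held an exact match to the DR4 pattern, which was found in 0.27% of all genes. Sites that differ from the pattern at any base were not counted. The Abca1 window holds such a near match (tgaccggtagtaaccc, read on the other strand), which misses the pattern at the first base of its later RGKTYA. A match is a description of letters in the window, and a missing match says only that these letters are not there.

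The wider cholesterol genes, 59 in 8 lists, were examined beside the members, and 56 of them passed the filter (Apoc2, Soat2 and Hsd3b7 did not). Of these, 10 were called higher and 3 lower, where 9.85% and 6.04% of all tested genes were, with a median log2 fold change of 0.12 against 0.01. The counts of each list below are read against the same shares. These lists and their median describe the surroundings of the pathway and were not tested as sets. The counts depended on single libraries, being 3 higher and 0 lower without ND1 or without ND2, 5 and 1 without ND3, 4 and 1 without HFD1, 13 and 5 without HFD2, and 11 and 3 without HFD3. Nceh1, Lipa and Pltp were called in all 6 of these runs. Each of the other called genes was called in only 1 (Npc2) to 4 (Msr1) of them.

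Of 6 genes of lysosomal release and export, 4 rose, with a median log2 fold change of 0.99 for the list. Lipa, the lysosomal acid lipase, rose from 79.6 ± 7.52 to 751 ± 446 CPM, 9.44-fold (edgeR adjusted p = 0.00791). Npc1 and Npc2, which pass cholesterol out of the lysosome, had log2 fold changes of 1.32 and 0.85, and Stard3, a sterol carrier of late endosomes, of 1.13. Without single libraries, Npc1 and Stard3 were each called in 2 of 6 runs and Npc2 in 1 of 6. Nceh1, a hydrolase of cholesteryl esters, rose from 10.9 ± 4.33 to 175 ± 103 CPM, 16.1-fold (edgeR adjusted p = 0.00735). Soat1, which forms these esters, and Nceh1, which cleaves them, were thus both higher.

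Of 8 lipoprotein and scavenger receptors, 2 rose. Msr1, a scavenger receptor of macrophages, rose from 8.57 ± 1.19 to 75.5 ± 49.5 CPM (log2 fold change 3.14), and Lrp1, an endocytic receptor of apolipoprotein E remnants, from 721 ± 13.4 to 1488 ± 413 CPM (1.04). Without single libraries, Msr1 was called in 4 of 6 runs and Lrp1 in 2 of 6.

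Of 10 tested genes in the list of liver X receptors and targets, 2 rose and 1 fell. The list was chosen by name, with earlier results of these data known, and is not a full set of targets. Whether its genes respond to these receptors here was not tested. Pltp, the phospholipid transfer protein, rose from 119 ± 14 to 562 ± 108 CPM, 4.74-fold (edgeR adjusted p = 0.00344), and Abca7 rose with a log2 fold change of 0.69. Apoc1, an apolipoprotein, fell, with an edgeR adjusted p of 0.0220 and a log2 fold change of -1.40. Neither the receptors themselves nor Rxra, also in the list, were called by edgeR. Nr1h3, which encodes liver X receptor alpha, was at 105 ± 11.3 and 104 ± 7.81 CPM. Its log2 fold change was -0.01 with a 95% interval of -0.31 to 0.29, and that of Nr1h2 was 0.03. Rxra had a log2 fold change of -0.61 (95% interval -1.08 to -0.14, edgeR adjusted p = 0.0776). Every HFD library lay below every ND library in Rxra, and DESeq2 called it lower (adjusted p = 0.0286). The targets Abcg1, Pltp and Abca7 rose, and Apoc1 fell. Abca1 was not called, nor were Mylip, Lpcat3, Abcg4 and Arl4c of the list.

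Elsewhere, Gramd1b, which carries sterol from the plasma membrane, rose (log2 fold change 0.85), and no other of 7 membrane transport genes was called. Srebf1, which encodes SREBP-1, the related factor of fatty acid synthesis, fell from 472 ± 59.8 to 217 ± 69.4 CPM (log2 fold change -1.12, edgeR adjusted p = 0.0272), and was the only called gene of 8 in its list. Fnta, a subunit of the enzymes that attach isoprenoids to proteins, fell with a log2 fold change of -0.52 and was the only called gene of 12 on side branches of the pathway. None of the 3 tested oxysterol and bile acid genes was called by edgeR, by DESeq2 or at an unadjusted p under 0.05.

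**Figure D5:**
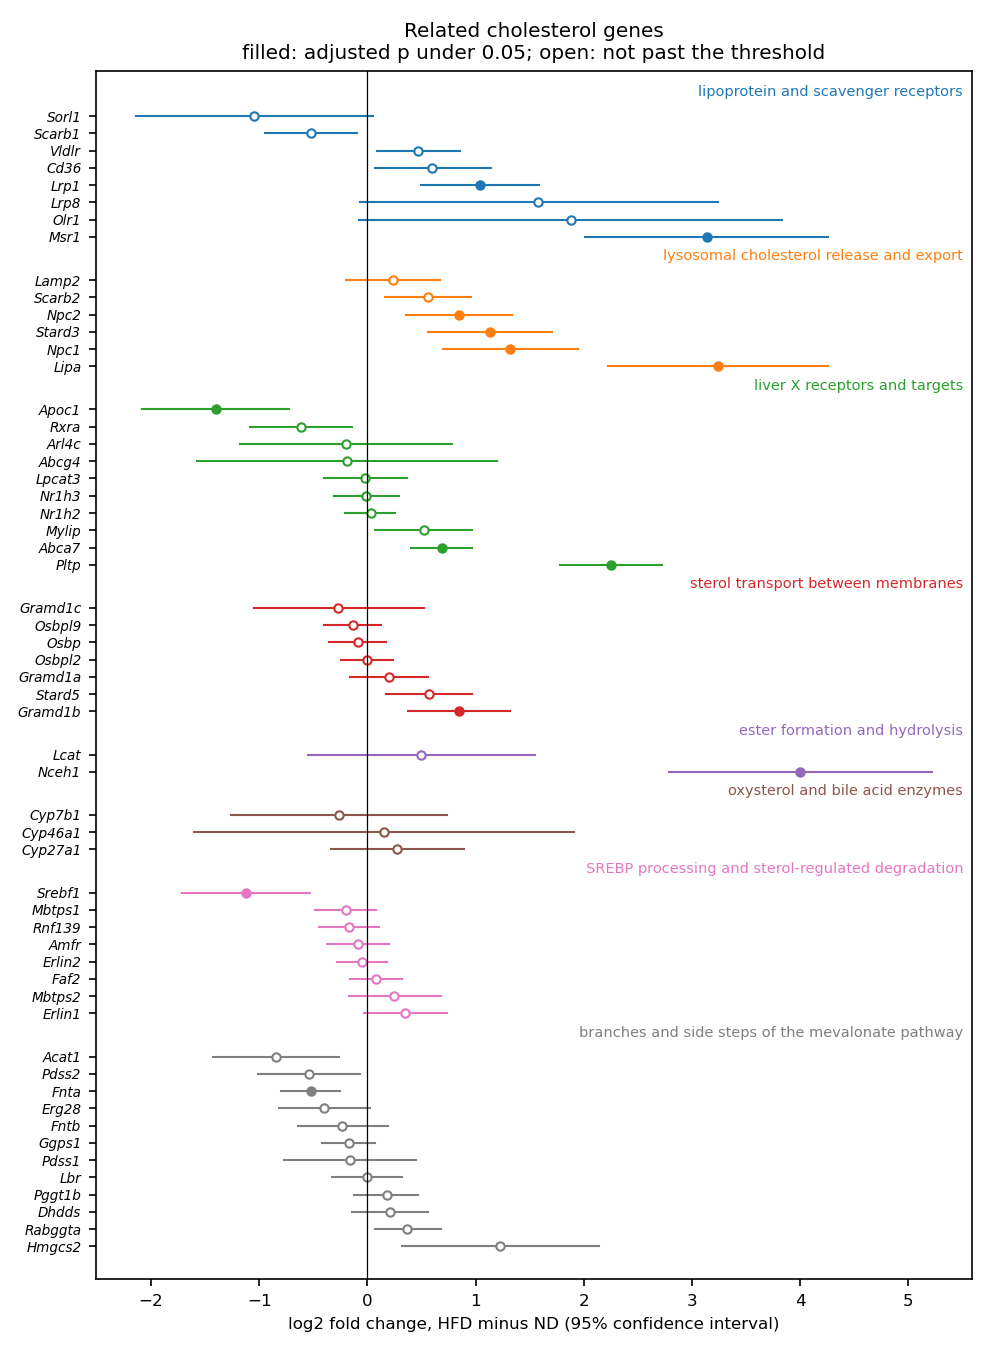
Log2 fold change of HFD against ND for the wider cholesterol genes by list, with 95% intervals (lines) and called genes as filled points. The called genes with the largest values are Nceh1 (4), Lipa (3.24), Msr1 (3.14) and Pltp (2.25).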

How the data were processed

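RNA of epididymal fat was sequenced in 3 ND and 3 HFD libraries, grouped by the diet in their labels. The deposited counts are whole reads per gene without normalization, and FPKM values were deposited beside them. The paper's methods name TopHat and Cufflinks with GRCm38, whereas the submitters' processing notes list CASAVA 1.8, fastp, HISAT2 2.0.5, featureCounts 1.5.0-p3 and DESeq2 1.20.0 with a human build. All 54532 identifiers are mouse genes, and 54495 were found in GENCODE M21. The strand setting of the counting is not given in the sources used here.

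The members and lists were chosen with earlier results of these data known. Genes were filtered with filterByExpr, scaled by TMM and fitted with edgeR 4.0.16 in R 4.3.3 (quasi-likelihood F-test, robust=TRUE, diet as the only factor), and p-values were adjusted by Benjamini-Hochberg over all 15751 tested genes. SE and intervals were derived from the F statistic. An exact permutation test of 3 libraries against 3 reaches no p under 0.1 and was not used. Alternatives were DESeq2 1.42.0, edgeR with the size factors of DESeq2 or with library sizes alone, the filter dropped or replaced by a minimum of 10 counts in 3 libraries, a non-robust fit, a block for the replicate number, and each library left out. The fit was tested on simulated data. FPKM served only to compare levels between genes.

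Library values are given for called members, all regulation and efflux members and the 5 uncalled members with the largest change, and for Hmgcs1, which was added after its values were seen. Of each wider list, called genes are named, at most 5 by size of change. Mean log2 levels used log2(CPM + 0.5). Pairs of libraries differed by more than sampling noise, so none was merged. Totals per library lay between 16996896 and 18859320 counts.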

Additional observations from a re-analysis of the deposited data

How the results depend on the processing

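Outside the runs that left out a library, 192 of 196 comparisons of a member with an alternative kept their direction and their side of the threshold, and none changed direction. Pmvk lost its call without a filter (adjusted p = 0.0864) and with the replicate block (0.0574), and Tm7sf2 gained one with DESeq2 (0.0159) and with library size only (0.0433). DESeq2 called 2033 genes higher and 1596 lower over all genes, against 1552 and 952. Among the wider cholesterol genes it called 14 higher and 6 lower, against 10 and 3. The replicate numbers did not pair the libraries, since the deviations of same-numbered libraries correlated at -0.0858, -0.0556 and -0.00532. With the replicate block 1886 genes were called, against 2504, of which 1693 were shared, and 2 synthesis genes were called lower. The median log2 fold change of all genes was 0.01 as reported, -0.01 with the size factors of DESeq2 and 0 with library size only.

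Leaving out 1 library gave 337 to 2368 genes higher and 94 to 1572 lower over all genes, 0 to 3 synthesis genes lower, and 3 to 13 higher and 0 to 5 lower among the wider cholesterol genes. Abcg1 and Soat1 were called in all 6 runs. The median log2 fold change was -0.76 to -0.08 in the synthesis genes and -0.06 to 0.17 in the efflux and storage genes, negative without ND3 (-0.04) and without HFD3 (-0.06). Uncalled members changed direction, with ranges of -0.07 to 0.64 in Hmgcs1, -0.87 to 0.36 in Mvd, -0.95 to 0.06 in Sqle, -0.56 to 0.51 in Lss, -0.23 to 0.36 in Msmo1, -0.18 to 0.51 in Hsd17b7, -0.12 to 0.18 in Ebp, -0.01 to 0.93 in Dhcr7, -0.28 to 0.05 in Insig2, -0.01 to 0.15 in Abca1 and -0.27 to 0.28 in Ch25h. The cause was not tested. Each run without a library has fewer samples and less power. Ch25h and Fdps had at most 23 counts in any library, which limits the precision of their values.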

Other observations

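Of the 15 macrophage markers 11 rose, and Mrc1 (log2 fold change 0.87), Cd14 (0.61), Mertk (-0.02) and Cx3cr1 (-0.31) were not called by edgeR. DESeq2 called 12 of the 15 higher, Mrc1 among them (adjusted p = 0.00775). Of the adipocyte markers, Adrb3 (-1.84), Retn (-2.05) and Cfd (-3.42) fell. DESeq2 called 7 of the 15 adipocyte markers lower, and 7 had an unadjusted p under 0.05 in edgeR. Median log2 fold changes were -0.36 over the endothelial and -0.29 over the mesothelial markers, and edgeR called no gene of either list. DESeq2 called 1 endothelial marker lower, and 1 endothelial and 0 mesothelial markers had an unadjusted p under 0.05. Of 4 tested epithelial markers none was called by edgeR, and 1 had an unadjusted p under 0.05. DESeq2 gave no adjusted p for Krt8 and Krt18, and called neither Krt19 nor Cldn3. Epcam, Cdh1, Cldn7 and Foxj1 did not pass the filter. They had 751, 309, 246 and 1090 counts in ND3 and at most 6 in any other library. Among the wider cholesterol genes, Cd36, a fatty acid and lipoprotein scavenger receptor, had a log2 fold change of 0.60 (edgeR adjusted p = 0.114), and Acat1, the mitochondrial counterpart of Acat2, of -0.84 (0.0602). Neither was called by edgeR. DESeq2 called Cd36 higher (adjusted p = 0.00617) and Acat1 lower (adjusted p = 0.00909). Both were picked out here after their values were seen.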
